A study of Mus musculus with 2 samples.

Results

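Bone morphogenetic protein (BMP) and leukaemia inhibitory factor (LIF) pathway genes were described in single mouse embryonic stem cells. The members are Id1, Id2, Id3, Bmp4, Smad6, Socs3, Stat3, Lifr and Il6st, listed by symbol with earlier results of these data known. They are 9 of the 55415 features counted, and each was found once. The cells came from a mouse embryonic stem cell line with a MERVL::GFP reporter, in which the promoter of MERVL, a retrovirus of the mouse genome transcribed in 2-cell-like cells, drives GFP, together with H2B-mIFP, a fluorescent histone for following cells. The groups were MERVL GFP positive and MERVL GFP negative, with 1 single-cell library each, and both carried the reporter and the H2B-mIFP label. The study set out to trace the fate that 2-cell-like cells take. Whether the line is 1 clone, how the cells were separated and whether the medium held LIF or BMP4 are not given in the sources used here, and those conditions bear on every gene described.

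BMP ligands such as Bmp4 bind type I and type II receptors, which phosphorylate SMAD proteins that enter the nucleus with Smad4. The Id genes are direct targets of this route: their products lack a DNA-binding region and hold basic helix-loop-helix factors away from DNA. Smad6 is an inhibitory SMAD that the route itself induces. LIF binds its receptor Lifr together with gp130, the product of Il6st, and the JAK kinases on that pair phosphorylate Stat3. Stat3 then switches on its own inhibitor Socs3. In mouse embryonic stem cells LIF with BMP can hold the naive state in culture without serum, with Stat3 and the Id proteins as the best known effectors. Zfp42, also called Rex1, is a marker of the naive state, and the Zscan4 genes mark 2-cell-like cells.

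All 9 genes are protein-coding. On GRCm38, the build named mm10 in the submitters' processing notes, Id1 lies at chr2:152736251-152737410 on the plus strand, Id2 at chr12:25093799-25097140 on the minus strand and Id3 at chr4:136143497-136145755 on the plus strand. Bmp4 lies at chr14:46383520-46390669 and Smad6 at chr9:63953076-64022059, both on the minus strand. Socs3 (chr11:117966079-117970047) and Stat3 (chr11:100885098-100939540) share chromosome 11 and its minus strand. Lifr lies at chr15:7090614-7197489 and Il6st at chr13:112464070-112510086, both on the plus strand.

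RefSeq (GRCm38.p6) promoter windows were found for 8 of the 9 genes. Those of Id2 and Socs3 are shown as a BMP target and a STAT target, and those of Lifr and Il6st because both chains of the LIF receptor were lower in the positive library. Each runs 5′ to 3′ on the gene's strand and is trimmed to the stretch outside annotated exons. The RefSeq starts of Id2, Socs3 and Lifr lie inside the longer gene spans given above, so these 3 stretches lie upstream of the RefSeq start and within the annotated gene. Capitals mark matches on either strand to the letters TTCNNNGAA, a STAT motif, to GGCGCC, a GC-rich SMAD motif, or to GTCTG, the SMAD box.
Id2, chr12:25096254-25096342, 89 bases: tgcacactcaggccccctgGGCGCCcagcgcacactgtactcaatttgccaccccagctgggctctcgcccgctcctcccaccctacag
Socs3, chr11:117969452-117969616, 165 bases: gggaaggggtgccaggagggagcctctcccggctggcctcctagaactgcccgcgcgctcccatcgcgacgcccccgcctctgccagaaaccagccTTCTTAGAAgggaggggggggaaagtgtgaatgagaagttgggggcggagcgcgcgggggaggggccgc
Lifr, first start, chr15:7129322-7129558, 237 bases: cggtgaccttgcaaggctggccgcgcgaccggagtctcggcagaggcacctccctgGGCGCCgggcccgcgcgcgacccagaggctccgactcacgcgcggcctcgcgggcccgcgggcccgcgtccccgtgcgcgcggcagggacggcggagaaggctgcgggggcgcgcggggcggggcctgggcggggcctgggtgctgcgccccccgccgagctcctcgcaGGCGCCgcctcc
Il6st, chr13:112463820-112464069, 250 bases: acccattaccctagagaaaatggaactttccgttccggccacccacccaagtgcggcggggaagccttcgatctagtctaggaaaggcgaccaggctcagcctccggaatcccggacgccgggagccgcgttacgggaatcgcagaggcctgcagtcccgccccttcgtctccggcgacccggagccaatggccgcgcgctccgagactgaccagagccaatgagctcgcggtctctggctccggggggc
The Id2 stretch held GGCGCC at 231 bases before the RefSeq start. The Socs3 stretch held TTCNNNGAA at 154 bases before it, and the trimmed part of its window held GGCGCC at 61 bases. The Lifr stretch held GGCGCC at 194 and 25 bases before it, while the window of a second Lifr start held no GGCGCC and GTCTG at 219 bases, and the Il6st stretch held none of the 3 motifs. Among 32851 promoter windows of 250 bases, 7.02% held TTCNNNGAA, 9.59% held GGCGCC and 42.2% held GTCTG, shares that apply to whole windows and not to the shorter stretches. These matches describe letters and not sites of binding.

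The positive library kept 4596 cells with 138303336 UMIs (counts read as molecules) and the negative library 3832 cells with 156406894 UMIs. The median cell had 29554.5 and 39099.5 UMIs, and 2.56% and 1.60% mitochondrial UMIs. The libraries shared 3 barcodes. The reporter transcript matched the labels, with 204.6 GFP CPM (UMIs scaled to 1000000 per library) against 0.454, and the summed level of 6 embryonic stem markers was 2397 against 2763 CPM, with all 6 detected in both. With 1 library per group no test was possible, and library, batch label and group cannot be told apart. Values are summed UMIs as CPM with 95% exact Poisson intervals, which cover counting error only. Of the other cell types, 12 primitive endoderm markers summed to 735 against 315 CPM, all detected in both libraries. The 8 feeder fibroblast markers summed to 13.1 against 3.16 CPM, with Col3a1 and Postn at 0 UMIs in the negative library, and the 7 trophoblast markers to 15.96 against 7.94 CPM. Their part in the differences between the libraries was not tested, except for the endoderm values below.

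The 3 Id genes were higher in the positive library and Bmp4 and both receptor genes were lower. Between the positive and the negative library Id1 stood at 230.3 CPM (228 to 233) against 118 CPM (117 to 120.2), a ratio of 1.94 (1.91 to 1.98). Id2 stood at 73.9 CPM (72.4 to 75.3) against 30.8 CPM (29.9 to 31.6), a ratio of 2.40 (2.32 to 2.49). Id3 showed the widest gap of the 9 genes by the log2 ratio of CPM + 1 (1.46), with 165 CPM (163 to 167) against 59.3 CPM (58.1 to 60.5) and a ratio of 2.79 (2.72 to 2.85). The ligand gene went the other way. Bmp4 stood at 16.2 CPM (15.6 to 16.9) against 26.6 CPM (25.8 to 27.4), or 1.64-fold lower (1.56 to 1.73). Smad6 was barely detected, with 1.72 CPM from 238 UMIs and 1.42 CPM from 222 UMIs. Its ratio of 1.21 had an interval of 1.01 to 1.46.

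Among the LIF genes the receptors were lower and the feedback gene was level. Lifr stood at 18.4 CPM (17.7 to 19.1) against 34.9 CPM (33.9 to 35.8), or 1.89-fold lower (1.81 to 1.99). Il6st stood at 8.40 CPM (7.93 to 8.90) against 13.9 CPM (13.3 to 14.5), or 1.65-fold lower (1.54 to 1.78). Stat3, the transcription factor of the route, had 24.0 CPM (23.2 to 24.9) against 30.5 CPM (29.6 to 31.3), 1.27-fold lower (1.21 to 1.32). Socs3, its target and inhibitor, had 53.3 CPM (52.1 to 54.5) against 54.6 CPM (53.4 to 55.7), and the interval of its ratio, 0.947 to 1.01, spanned 1. The intervals of the libraries overlapped for Smad6 and Socs3 and for none of the other 7 genes.

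**Figure D1:**
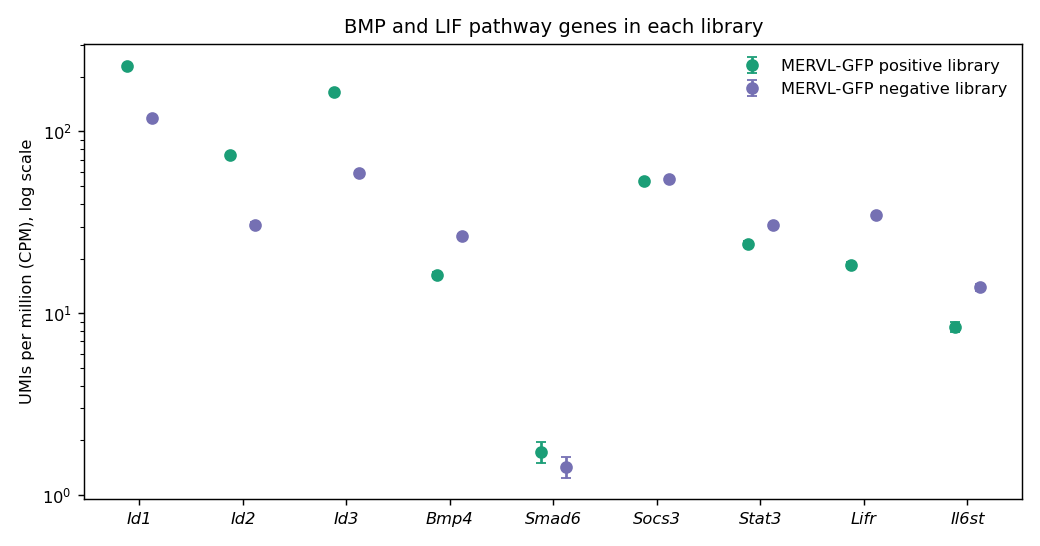
Summed level of each gene in the 2 libraries, in CPM on a log axis; points are libraries and bars are 95% exact Poisson intervals, often smaller than the point. The 3 Id genes stand higher in the positive library (Id3 at 165 against 59.3 CPM), and Bmp4, Stat3, Lifr and Il6st stand lower.

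A rule of size was read across all genes: a ratio of CPM + 1 of at least 2, with at least 10 CPM in one library and 50 UMIs in both together. Of the 8 members that met these minimums (all but Smad6), 2 were higher (Id2 and Id3) and 0 lower. Over all 8042 such genes, 7.01% were higher and 0.995% lower. The median log2 ratio was -0.18 over the 8 members and 0.14 over all 8042 genes. Trimmed-mean (TMM) scaling, which moved the median of all genes to -0.16, gave log2 ratios of 0.66 for Id1, 0.95 for Id2 and 1.17 for Id3. On that scaling Lifr stood at -1.17, Bmp4 at -0.96, Il6st at -0.93 and Stat3 at -0.61, so those directions held, but Id2 was no longer past the rule and Lifr became lower by it. The value of Socs3 moved from -0.03 to -0.32.

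The library difference was read again in the positive-library cells with least Zscan4 and GFP. Cells were thinned to 10000 UMIs, which left out 194 positive and 8 negative cells below that depth, and classed by their UMIs of 9 Zscan4 features, of GFP and of Zfp42. These classes share cells, so they are not independent views. The Zscan4 genes are near-identical copies and were summed. The 795 positive-library cells with 0 thinned UMIs of both were not free of them: over all their UMIs Zscan4 summed to 41.4 CPM and GFP to 25.7 CPM, against 0.812 and 0.454 CPM in the negative library. Against the negative library these cells gave log2 ratios of 0.60 for Id1, 1.23 for Id2 and 1.06 for Id3. The same cells gave -0.46 for Bmp4, -0.51 for Lifr, -0.19 for Il6st and -0.04 for Stat3. Id2 was thus as far apart as over the whole library (1.24), Stat3 was nearly level, and the other 5 were nearer to 0 than over the whole library. One of the 795 cells held 18.7% of their Id3 UMIs, and without it Id3 was at 102 CPM in place of 125 CPM, less than 2 times the 59.3 CPM of the negative library. The top cell for Id2 held 9.10% of its UMIs, and 66.8 CPM remained of 73.2 CPM. Without cells of 3 or more endoderm marker UMIs the values were 0.99 for Id1, 1.31 for Id2, 1.45 for Id3 and -0.59 for Bmp4.

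Other genes of both routes were taken from lists of 30 each, chosen with earlier results of these data known. In the BMP list 13 genes met the minimums, with 1 higher and 0 lower, and their median log2 ratio was 0.54. That is close to the 7.01% higher and 0.995% lower over all genes read, so the count sets neither direction apart. The higher gene was Msx2, a homeobox gene that BMP induces in many tissues, at 12.6 against 1.81 CPM. In the LIF list 16 genes met them, with 2 higher and 2 lower and a median of -0.03. The genes past the rule are named for their values alone. Pim1, a kinase gene that STAT factors induce, had 328 against 155 CPM, but its log2 ratio of 1.08 became 0.79 on TMM scaling. Pramel7, a LIF-responsive gene of the naive state, had 13.3 against 1.36 CPM. Socs2, a cytokine feedback inhibitor, had 25.3 against 73.2 CPM, and Gbx2, a homeobox target of Stat3, had 6.63 against 15.8 CPM. Among genes that the route induces, Pim1 and Socs2 thus stood on opposite sides while Socs3 was nearly level.

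Within the positive library, cells rich in Zscan4 UMIs had more of all 3 Id transcripts and less of Bmp4 and the receptors. The classes of 0, 1 to 4, 5 to 19 and 20 or more thinned Zscan4 UMIs held 1424, 1895, 721 and 362 cells. Over these classes Id1 stood at 198, 209, 334 and 349 CPM, and Id3 at 141, 152, 218 and 288 CPM. Most of the Id1 difference lay between the second and the third class, with a ratio of 1.60 (1.56 to 1.65), and the last 2 classes did not differ beyond counting error. Id2 stood at 68.5, 70.8, 84.5 and 107 CPM, and its first 2 classes did not differ beyond counting error. One cell held 9.39% of the Id3 UMIs of the first class, whose value without it was 128 CPM.

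Bmp4 stood at 19.98, 16.3, 8.88 and 7.25 CPM over the same classes, and Il6st at 10.9, 7.92, 4.62 and 3.82 CPM. Lifr stood at 21.4, 18.3, 12.1 and 12.3 CPM. For these 3 genes the last 2 classes did not differ beyond counting error. Stat3 had 27.1, 23.6, 21.6 and 16.2 CPM. Socs3 was highest in the third class, at 64.4 CPM, and had 50.1 CPM in the first and 53.4 CPM in the last. Smad6 stayed between 1.37 and 2.11 CPM with no step beyond counting error.

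Between cells with 20 or more and 0 Zscan4 UMIs, 1 member was past the rule in the higher direction (Id3, log2 ratio 1.02) and 2 in the lower (Bmp4, -1.35, and Il6st, -1.30). Of the 8545 genes read, 11.1% were higher and 6.92% lower. On TMM scaling Id3 was under the rule. Median UMIs per cell were 33210, 31130, 25562 and 19375 over the classes, mitochondrial UMIs 2.36%, 2.45%, 2.79% and 3.27%, and the endoderm markers summed to 822, 725, 702 and 347 CPM. Zfp42 itself was at 1103 CPM in the first class and 313 CPM in the last. Among cells with 0 to 2 Zfp42 UMIs alone, the log2 ratio over the outer Zscan4 classes was -0.03 for Id1 and 0.07 for Id2, while Id3 kept 0.59, Lifr -0.55 and Il6st, which was under 10 CPM there, -1.12. Bmp4 was at -0.15 there, and its values in the other Zfp42 classes are given with the crossed classes. Endoderm markers moved with Zscan4 among these cells too, at 2531 CPM with 0 Zscan4 UMIs and 893 CPM with 5 or more. Their part in these values was not tested.

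A few listed genes were past the rule in the Zscan4 classes. Of 12 BMP list genes read, 1 was higher and 2 lower, with a median log2 ratio of 0.24 against -0.11 over all genes read. Bambi, a decoy receptor, had 48.5 against 17.2 CPM, the inhibitory SMAD gene Smad7 had 62.2 against 148 CPM, and the type II receptor gene Acvr2b had 9.36 against 20.1 CPM. Of 17 LIF list genes, 2 were higher and 4 lower, with a median of -0.07. The higher counts are near the 11.1% of all genes read, and 6.92% of those were lower. Il6ra, the receptor for IL-6 that also pairs with gp130, had 21.9 against 4.08 CPM, and Socs1, a JAK inhibitor, had 31.4 against 8.55 CPM. The lower genes were Socs2 (6.86 against 32.8 CPM) and the transcription factor genes Klf4 (158 against 377 CPM), Tfcp2l1 (43.8 against 106 CPM) and Myc (6.99 against 15.9 CPM). So Il6ra was higher in the cells in which Il6st, its signalling partner, was lower.

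By reporter level the receptors showed the widest differences. The classes of 0, 1, 2 to 4 and 5 or more thinned GFP UMIs held 1718, 769, 1132 and 783 cells. Lifr stood at 22.7, 17.4, 15.2 and 11.3 CPM and Il6st at 10.4, 8.56, 6.34 and 4.86 CPM, each class below the one before it beyond counting error. Stat3 stood at 27.7, 26.1, 19.9 and 18.6 CPM, and Bmp4 at 18.5, 15.5, 15.02 and 11.5 CPM. Id1 had no steady order, with 207, 272, 224 and 257 CPM, and Id3 ran from 143 to 197 CPM. Id2 stood at 77.1, 82.5, 69.0 and 63.0 CPM, higher at the first step as the other Id genes were, and lower in the last class than in the first, where they were higher.

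Over these outer GFP classes 0 members were past the rule in either direction, with Il6st nearest at a log2 ratio of -0.96 and Lifr at -0.95. Of the 8204 genes read, 4.89% were higher and 1.80% lower. Socs3 ran from 47.6 to 59.6 CPM, and Smad6 was at 2.35 CPM or less in each class. Of 13 BMP list genes none was past the rule, and of 15 LIF list genes 1 was higher and 3 lower. Il6ra had 20.8 against 3.29 CPM, and Socs2, Tfcp2l1 and Myc were lower, with log2 ratios from -1.29 to -1.06. Endoderm markers summed to 707 CPM in the first class and 767 CPM in the last, and Zfp42 to 1070 and 559 CPM.

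Zscan4 and GFP together separated the genes into different patterns. Among cells with 0 Zscan4 UMIs, 795 had 0 GFP UMIs and 357 had 2 or more. Among cells with 5 or more Zscan4 UMIs, 145 had 0 GFP UMIs and 787 had 2 or more. In that order Id1 stood at 179.6, 166, 333 and 321 CPM, so its level went with Zscan4 and hardly with GFP. Zfp42 also differed with Zscan4, at 1147, 982, 406 and 445 CPM over these classes, and its part was not tested. Id2 stood at 73.2, 47.6, 109 and 81.0 CPM, lower with GFP at either Zscan4 level. In the third class 1 cell held 16.6% of the Id2 UMIs, and 91.7 CPM remained without it, nearer to the fourth class. Lifr was lower with each, at 24.2, 16.4, 15.6 and 10.7 CPM, and Il6st stood at 12.01, 7.72, 4.60 and 4.22 CPM.

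Bmp4 in these joint classes stood at 19.1, 19.9, 10.98 and 8.24 CPM, and Stat3 at 29.5, 20.4, 25.6 and 17.6 CPM. Bmp4 thus differed with Zscan4, and Stat3 more with GFP. Id3 had 125, 152, 301 and 212 CPM, but 1 cell held 18.7% of the Id3 UMIs of the first class and 1 cell 17.5% of those of the third. Without that cell the first class was at 102 CPM and the third at 250.4 CPM.

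Cells with little Zfp42 had the highest Id levels in both libraries. In the positive library the classes of 0 to 2, 3 to 7, 8 to 15 and 16 or more thinned Zfp42 UMIs held 1317, 1101, 1181 and 803 cells. Id1 stood at 371, 283, 159 and 88.7 CPM over them, a ratio of 4.18 (4.01 to 4.37) between the outer classes. Id2 stood at 104, 92.7, 56.1 and 39.2 CPM and Id3 at 250.01, 192, 116 and 94.8 CPM, both with an outer ratio of 2.64. One cell held 10.2% of the Id3 UMIs of the second class, whose value without it was 173 CPM. Every step of the 3 Id genes went the same way beyond counting error.

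Bmp4 was lower where Zfp42 was low, at 8.78, 14.6, 20.2 and 21.2 CPM in the positive library, or 2.41-fold (2.10 to 2.78) between the outer classes. Lifr stood at 13.4, 16.05, 20.3 and 23.7 CPM and Il6st at 5.82, 7.96, 9.31 and 10.2 CPM. Socs3 had 44.4 CPM in the lowest class and 54.5 to 57.8 CPM in the others. Stat3 stayed between 21.7 and 25.9 CPM. So ligand and receptor transcripts went with Zfp42 and the Id transcripts against it.

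In the negative library the same classes held 272, 606, 1882 and 1064 cells, and the Id pattern recurred for Id1 and Id2. Id1 stood at 215, 165, 112 and 82.0 CPM, an outer ratio of 2.62 (2.48 to 2.76), and Id2 at 54.1, 44.9, 28.8 and 21 CPM, an outer ratio of 2.57 (2.32 to 2.86). Id3 differed less, with 70.3, 62.1, 59.4 and 54.8 CPM. Bmp4 had 19.95 CPM in the lowest class and 26.9 to 27.3 CPM in the others, a log2 ratio of -0.43 that became -1.18 among cells of 15000 to 40000 UMIs and -0.90 without endoderm marker cells. Lifr stayed between 33.8 and 35.4 CPM, Il6st between 13.2 and 15.01 CPM and Stat3 between 29.9 and 31.5 CPM. None of their steps was beyond counting error. Differences between the 2 libraries in these patterns were not tested.

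By the rule of size, 3 members were higher (the Id genes) and 1 lower (Bmp4) in low-Zfp42 cells of the positive library, where 6.83% of 8263 genes were higher and 2.70% lower. In the negative library 2 were higher (Id1 and Id2) and 0 lower, where 3.72% of 7524 genes were higher and 1.5% lower. Of the BMP list, Smad7 was lower in the positive library (69.7 against 181 CPM) as the only one of 13, and Fst, which binds activins and some BMPs, was higher in the negative library (31.0 against 7.15 CPM) as the only one of 11. Of the LIF list, 3 of 16 were higher and 5 lower in the positive library, and 3 of 16 were higher and 1 lower in the negative library. Socs1 and Pramel7 were higher and Klf4 lower in both. Klf4 had 116 against 511 CPM among positive and 139.8 against 452 CPM among negative cells. The other genes past the rule were Il6ra on the higher side (16.5 against 3.0 CPM) and Socs2, Tfcp2l1, Gbx2 and Myc on the lower in the positive library, and Junb on the higher side in the negative library (32.4 against 14.7 CPM). Whether the libraries differ in these genes was not tested.

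**Figure D2:**
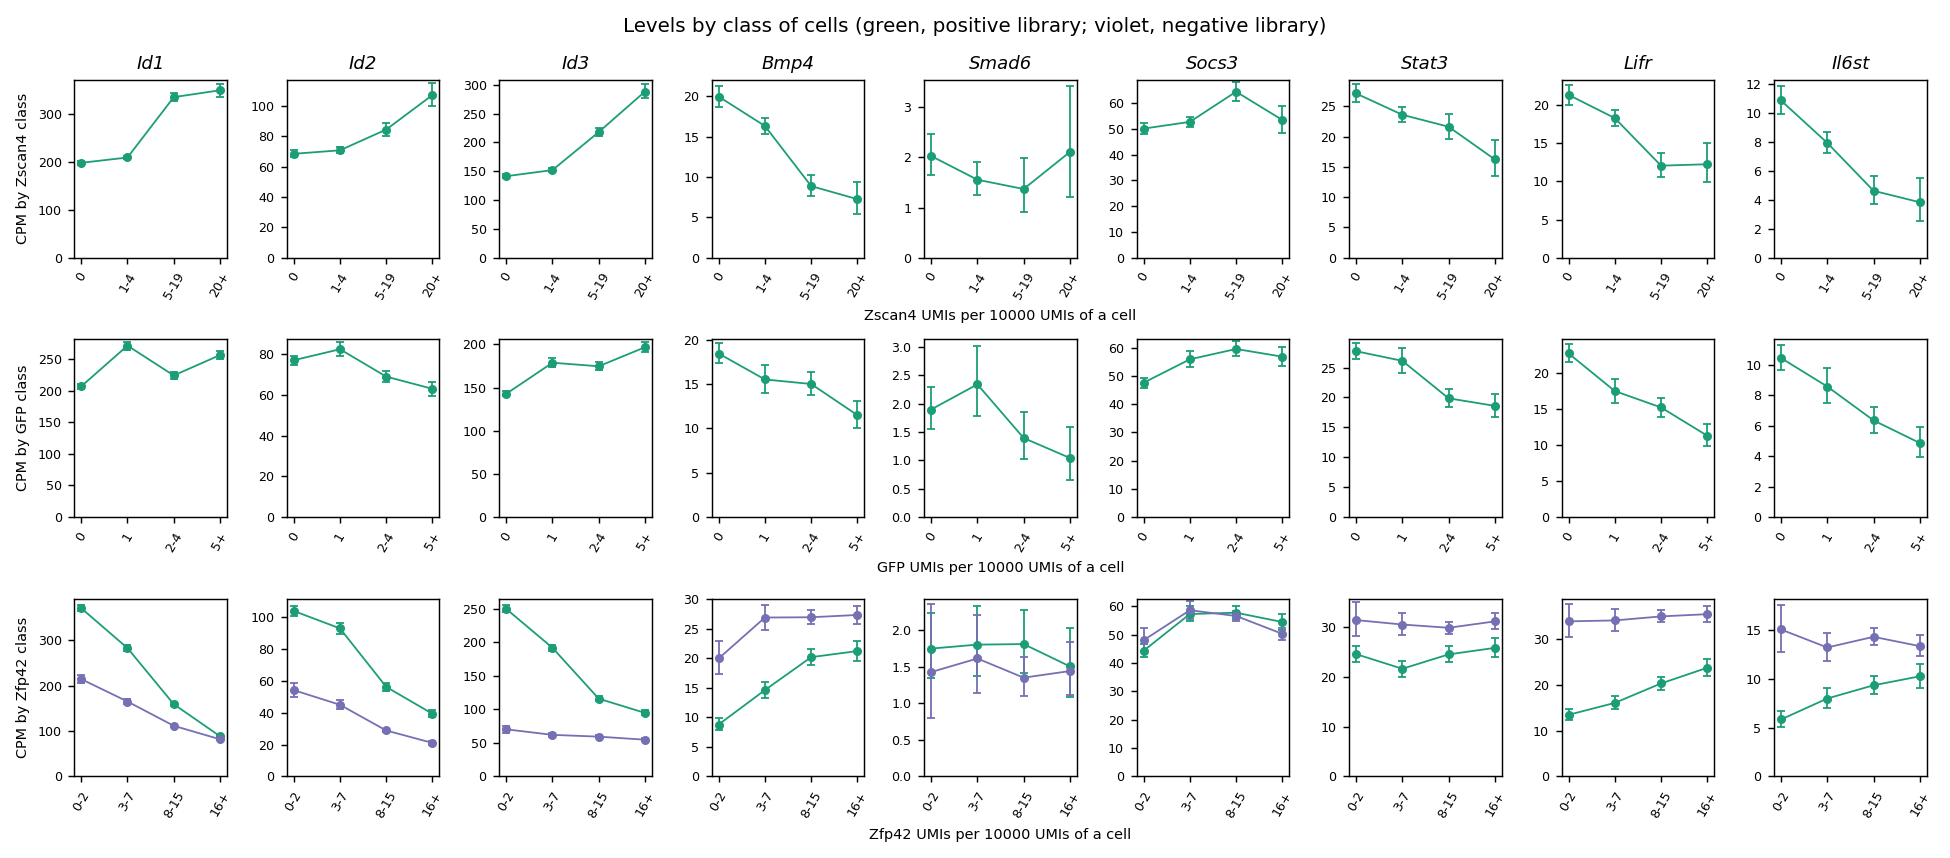
Level of each gene in CPM (vertical axes from 0) by class of cells, for Zscan4, GFP and Zfp42 UMIs per 10000 UMIs of a cell; green is the positive library, violet the negative, and bars are 95% exact Poisson intervals. In the bottom row the Id genes stand highest at 0 to 2 Zfp42 UMIs (Id1 at 371 and 215 CPM), while Bmp4 stands lowest there.

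The library difference was read again within Zfp42 classes, since 1317 of 4402 positive cells and 272 of 3824 negative cells were in the lowest class. Id1 was higher in the positive library by ratios of 1.73, 1.71, 1.43 and 1.08 from the lowest to the highest Zfp42 class. For Id2 the ratio stayed between 1.87 and 2.07. For Id3 it was 3.56, 3.09, 1.95 and 1.73. The 3.09 is smaller without the 1 positive-library cell that held 10.2% of the Id3 UMIs of its class, since 173 CPM remained of 192 CPM. At the highest Zfp42 level Id1 was therefore nearly level between the libraries (88.7 against 82.0 CPM), while Id2 and Id3 were not.

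Bmp4 was lower in the positive library 2.27-fold, 1.84-fold, 1.33-fold and 1.29-fold over the same classes. Lifr was lower 2.52-fold, 2.12-fold, 1.72-fold and 1.49-fold, and Il6st 2.58-fold, 1.65-fold, 1.53-fold and 1.30-fold. Over all cells with 8 or more Zfp42 UMIs the log2 ratios were 0.37 for Id1, 0.90 for Id2, 0.88 for Id3, -0.38 for Bmp4, -0.67 for Lifr and -0.48 for Il6st, and 0 members were past the rule in the higher direction. All 6 genes kept their direction there, with smaller differences than over all cells.

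Zscan4 and Zfp42 were crossed in the positive library. At 0 to 2 Zfp42 UMIs Id1 stood at 391, 356 and 374 CPM in cells with 0, 1 to 4 and 5 or more Zscan4 UMIs. At 3 to 7 Zfp42 UMIs it stood at 289.7, 244 and 341 CPM, at 8 to 15 at 137, 146 and 311 CPM, and at 16 or more at 79.1, 97.5 and 94.5 CPM. The last of these classes had 52 cells, of which 1 held 24.0% of the Id1 UMIs. Id1 was highest with 5 or more Zscan4 UMIs in the 2 middle Zfp42 classes. No order was read in the lowest, where the class with 0 was at 370.1 CPM without its top cell and the interval of the class with 5 or more (364 to 385) overlapped both others. Il6st stood at 9.18, 6.28 and 2.97 CPM in the lowest Zfp42 class, where the intervals of the outer Zscan4 classes did not overlap. Endoderm markers summed to 2531, 1918 and 893 CPM over those classes, and Il6st stood at 8.44 CPM in low-Zfp42 cells with 3 or more endoderm marker UMIs and 4.44 CPM in the others. The part of the endoderm markers in the Il6st values was not tested. Bmp4 was lower in cells with 5 or more Zscan4 UMIs than in those with 0 in each Zfp42 class. From the lowest Zfp42 class upwards it stood at 10.2 against 6.63, 18.1 against 9.06, 22.9 against 11.7 and 24.3 against 11.001 CPM. The last of these values rests on 17 UMIs. The intervals of the lowest class touched (8.20 to 12.5 and 5.30 to 8.20), and those of the others did not overlap. In the highest Zfp42 class Il6st stood at 12.03, 8.98 and 5.82 CPM over the Zscan4 classes. The last of these Il6st values rests on 9 UMIs, and its interval (2.66 to 11.1) overlaps that of the first (10.2 to 14.1).

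Low-Zfp42 cells were of mixed kind by their endoderm markers. The 12 markers summed to 1705 CPM at 0 to 2 Zfp42 UMIs and 221 CPM at 16 or more in the positive library, and to 2086 and 119 CPM in the negative library. Cells were therefore split at 3 thinned UMIs of 7 markers (Gata6, Gata4, Sox17, Sox7, Pdgfra, Dab2 and Foxa2). Among cells with 0 to 2 Zfp42 UMIs in the positive library, Id2 stood at 145 CPM in the 916 cells below that split and 25.5 CPM in the 401 cells above it. Negative-library cells gave 102 CPM in 135 cells and 11.3 CPM in 137 cells. In the first of these negative classes 1 cell held 12.8% of the Id2 UMIs, and without it the level was 89.6 CPM. In both libraries Id2 was thus high in low-Zfp42 cells with few endoderm transcripts and low in those with many. The positive cells below the split also had more 2-cell-like transcripts, with 9 markers at 1263 against 442 CPM and Zscan4 at 1143 against 262 CPM, whose part was not tested. In negative cells those markers summed to 0.403 and 0.360 CPM.

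Id1 was less divided by the endoderm markers than Id2. At 0 to 2 Zfp42 UMIs it stood at 439 CPM below the split and 243 CPM above it in the positive library, and at 222 and 208 CPM in the negative library, where 189 CPM remained below the split without the 1 cell that held 15.5% of its UMIs. Id3 stood at 291 and 173 CPM among positive and at 98.7 and 45.0 CPM among negative cells. Bmp4 stood at 9.56 and 7.31 CPM in the positive library. In the negative library the order was opposite, at 14.1 CPM below the split (11.6 CPM without 1 cell) and 25.2 CPM above it.

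**Figure D3:**
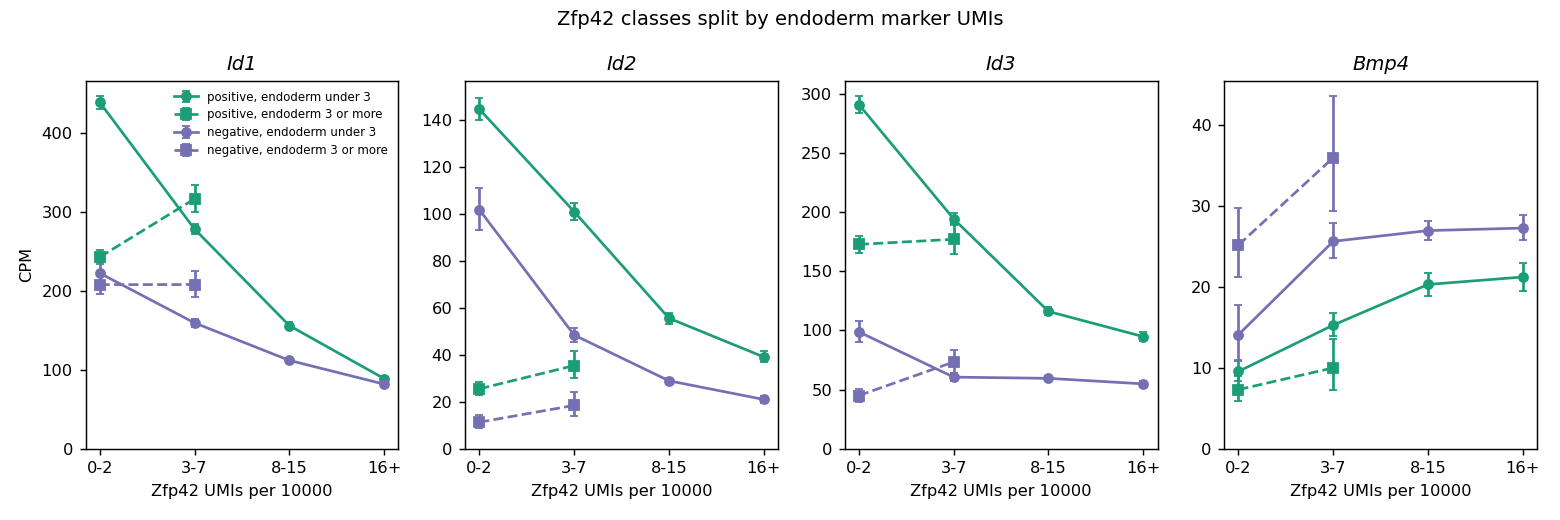
Level in CPM (vertical axes from 0) of Id1, Id2, Id3 and Bmp4 by Zfp42 class, split by endoderm marker UMIs per 10000. Lines are solid for under 3 endoderm marker UMIs and dashed for 3 or more. Green is the positive library, violet the negative, and bars are 95% exact Poisson intervals. At 8 or more Zfp42 UMIs, cells with 3 or more endoderm marker UMIs were too few to be drawn. Id2 stands at 145 and 102 CPM in low-Zfp42 cells with few endoderm UMIs and at 25.5 and 11.3 CPM in those with many.

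Over endoderm classes alone, cells with 10 or more marker UMIs (296 positive, 152 negative) were set against those with 0 (2937 and 3271). Id2 was lower with the markers in both libraries, at 25.8 against 78.0 CPM and 11.5 against 31.3 CPM. In the positive library 1 cell held 19.2% of the Id2 UMIs of the endoderm-rich class, and 20.9 CPM remained without it. Id1 stood at 259 against 217 CPM among positive and 213 against 111 CPM among negative cells. Bmp4 had 6.22 against 18.2 CPM among positive and 25.3 against 26.6 CPM among negative cells. Id3 had outer ratios of 0.851 (0.802 to 0.901) and 0.824 (0.731 to 0.925). Between the same positive classes Zfp42 stood at 176 against 1061 CPM, the 6 stem markers at 647 against 2757 CPM and the 9 2-cell-like markers at 228 against 473 CPM. Between the negative classes Zfp42 stood at 210 against 1303 CPM and the 6 stem markers at 870 against 2881 CPM. Their part in these values was not tested.

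Lifr had no steady order over the endoderm classes of 0, 1 to 2, 3 to 9 and 10 or more UMIs. It stood at 19.1, 15.6, 12.3 and 20.98 CPM among positive and 34.6, 36.8, 26.3 and 40.5 CPM among negative cells, lowest at 3 to 9 in both. Its outer ratios were 1.10 (0.945 to 1.27) and 1.17 (1.03 to 1.33). Stat3 was higher in endoderm-rich positive cells 1.34-fold (1.18 to 1.51) and had a ratio of 1.07 (0.920 to 1.23) among negative cells. Il6st was higher in endoderm-rich cells 1.32-fold (1.07 to 1.62) among positive and 1.36-fold (1.11 to 1.65) among negative cells. Socs3 was lower by 1.32-fold (1.19 to 1.47) and 1.30-fold (1.15 to 1.48). By the rule, 0 members were higher and 2 lower (Id2 and Bmp4) in the positive library, where 6.41% of 8271 genes were higher and 6.86% lower. The negative library had 0 higher and 1 lower (Id2), where 7.75% of 7726 genes were higher and 4.48% lower.

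Among the listed genes, Bmp6 and Fst were higher in endoderm-rich cells of both libraries, with Bmp6, another BMP ligand, at 18.2 against 1.46 CPM and 13.6 against 0.380 CPM. They were 2 of 14 BMP list genes in the positive library, where Smad5 and Smad7 were lower, and 2 of 12 in the negative library, where none was lower. Of the LIF list, 3 of 15 were higher and 3 lower in the positive library, and 3 of 16 were higher and 4 lower in the negative library. Over all genes read, 6.41% were higher and 6.86% lower in the positive library, and 7.75% and 4.48% in the negative. Klf5 and Pramel7 were higher and Klf4 and Pim1 lower in both, and Klf5, a Krüppel-like factor gene, had 744 against 326 CPM and 807 against 293 CPM. Sall4 was the other higher gene and Tfcp2l1 the other lower gene in the positive library. The negative library had Socs1 on the higher side and Gbx2 and Pim3 on the lower.

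**Figure D4:**
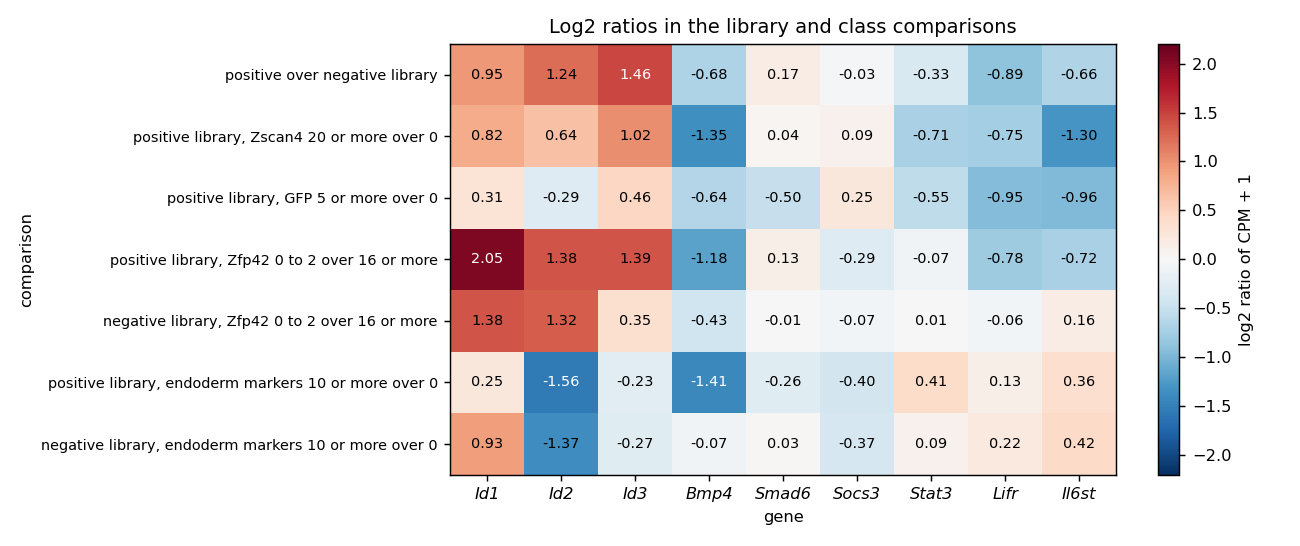
Log2 ratios of CPM + 1 for the 9 genes (columns) in the 7 comparisons (rows); red is higher and blue lower in the first-named side. Id1 reaches 2.05 between low- and high-Zfp42 cells of the positive library, and Id2 is at -1.56 and -1.37 in endoderm-rich cells.

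Detection per cell followed the levels for most genes. After thinning, Id1 had a UMI in 53.8% (52.3 to 55.3, exact binomial interval) of the cells of the positive library and 43.1% (41.5 to 44.7) of those of the negative library. Unthinned cells gave 76.0% and 73.2%, so most of their difference shows only at equal depth. Id2 had a UMI in 32.2% and 17.8% of thinned cells (53.1% and 38.6% unthinned), and Id3 in 51.4% and 31.5% (74.6% and 58.8% unthinned). No class of cells here should lack these genes, so no share from free RNA could be set beside them.

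Among the other genes, Bmp4 was detected in 11.8% and 20.97% of thinned cells (28.8% and 49.2% unthinned) and Lifr in 14.6% and 28.0% (36.8% and 67.5% unthinned). Stat3 had a UMI in 21.01% and 26.0%, Socs3 in 32.0% and 38.4%, Il6st in 7.50% and 12.3%, and Smad6 in 1.5% and 1.46%. For Socs3 the share was lower in the positive library while the CPM was nearly level, so no order was read from its share.

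Counts of the Id genes varied between cells beyond counting noise. The variance over the mean of thinned UMIs was 12.3 and 6.28 for Id1, 10.2 and 3.01 for Id3 and 4.48 and 2.83 for Id2. For Stat3 it was 1.09 and 1.06 and for Lifr 1.14 and 1.14, close to the 1 of pure counting noise. Among the other members the highest was Socs3, at 2.42 and 1.48. This measure can be larger for genes with more UMIs, and levels were not matched. The Poisson intervals of the Id sums above are therefore narrower than the spread between cells would give.

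The same cells tended to hold more than 1 Id transcript. Id2 had a UMI in 42.2% of positive-library cells with Id1 and 20.6% of those without it, and in 25.8% of negative-library cells with Id1 and 11.7% of those without. For Id3 the shares were 59.6% and 41.9% among positive and 40.3% and 24.8% among negative cells. All 3 Id genes were detected in 15.5% of positive-library cells and 5.41% of negative-library cells, and none of them in 21.5% and 37.9%. Cells had equal thinned depth in these counts, and their median depth before thinning was 29118 UMIs with Id1 and 31412 UMIs without it in the positive library.

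Across the cells of a library, which share depth and culture, the Pearson correlation of log(1 + thinned UMIs) between Id1 and Id2 was 0.42 over 4402 positive-library cells and 0.35 over 3824 negative-library cells. Between Id1 and Id3 it was 0.40 and 0.29, and between Id2 and Id3 0.27 and 0.13. With Zfp42, Id1 was at -0.23 and -0.14. Every pair among Bmp4, Smad6, Socs3, Stat3, Lifr and Il6st was at 0.065 or closer to 0, too weak in counts this sparse to be read. When 6611 genes were ranked by the lower of the 2 libraries' correlations, and only values of at least 0.2 were kept, Id2 and Id3 were the genes most like Id1. Id1 was the gene most like each of Id2 and Id3, and no gene reached that value for the other members.

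**Figure D5:**
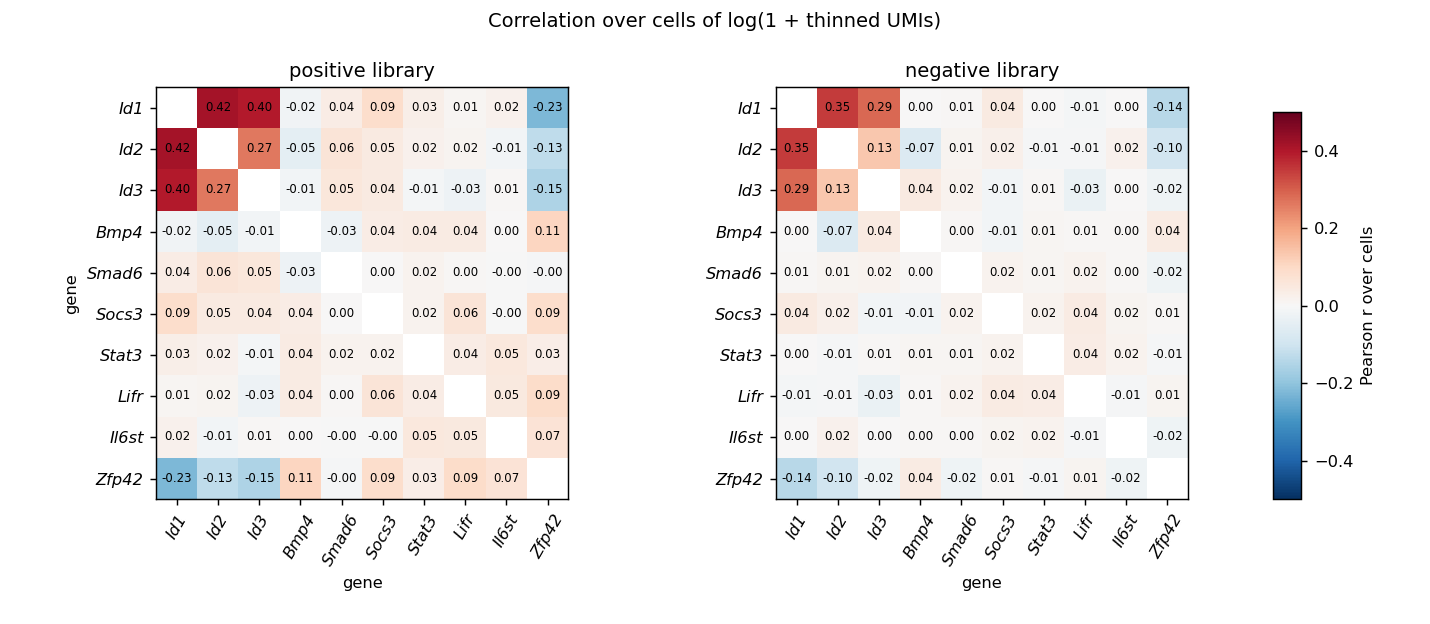
Pearson correlation over cells of log(1 + thinned UMIs) between the 9 genes and Zfp42, in each library; red is positive and blue negative, and the diagonal is blank. The Id pairs hold the highest values in both libraries (Id1 with Id2 at 0.42 and 0.35).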

How the data were processed

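The deposited files hold whole-number counts per gene and cell, 1 matrix per library, made by the authors. Barcodes of 16 bases are the ground for reading them as UMIs, since no label says that molecules were counted. The submitters' processing notes name FastQC 0.11.2, Trim Galore 0.6.4, STAR 2.7.6a and mm10, with no role or order. Cell calling and strand setting are not given in the sources used here, and the extraction text describes bulk kits. Of 55415 feature IDs, 52081 were in GENCODE release M21.

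Cells with at least 1000 UMIs, 500 genes and at most 20% mitochondrial UMIs were kept, which removed 7 positive-library cells. Doublets were not removed; an alternative left out cells above 2 times the median UMIs. Classes used cells thinned to 10000 UMIs (seed 7), and levels used all UMIs of those cells. Intervals were exact Poisson, exact conditional for ratios and Clopper-Pearson for shares, all at 95%. Log2 ratios used CPM + 1. No test was run, since each group has 1 library and cells are not replicates. The genes named are the 9 members, list genes past the rule of size and genes of like pattern over cells at a correlation of at least 0.2. The members and lists were chosen with earlier results of these data known. Steps were tested on simulated data. Scaling factors came from edgeR 4.0.16 in R 4.3.3, and all else from scipy 1.17.1, pandas 2.3.3, numpy 2.4.6 and matplotlib 3.10.9 in Python 3.11.15.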

Additional observations from a re-analysis of the deposited data

How the results depend on the processing

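No paired analysis was possible because both groups consist of a single library, which also means that leaving out a library does not apply. Of 504 member values under alternatives, 482 kept their sign and 22 did not. The 482 include those at a ratio of 1.5, a minimum of 1 CPM and a pseudocount of 0.1, settings that cannot change a sign. The changes were in Smad6 and Socs3 between libraries, in Id1, Smad6 and Socs3 over Zscan4 classes, in Smad6 and Stat3 over positive-library Zfp42 classes and negative-library endoderm classes, and in Il6st, Lifr, Smad6, Socs3 and Stat3 over negative-library Zfp42 classes.

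Leaving out the 3 barcodes found in both libraries changed neither count between libraries. The counts of members past the rule of size depended on the setting. Between libraries, 2 higher became 1 under TMM, 1 under median of ratios 0 in cells with 8 or more Zfp42 UMIs and 3 at a ratio of 1.5, and 0 lower became 1 under TMM, under median of ratios and in thinned cells, and 3 at a ratio of 1.5. Over Zscan4 classes, 1 higher became 0 under TMM, for 1 or more against 0 and in cells with 0 to 2 Zfp42 UMIs, and 3 at a ratio of 1.5, while 2 lower became 0, 0 and 4 for the last 3 settings. Over GFP classes, 0 lower became 1 in cells with 0 Zscan4 UMIs, 3 at a ratio of 1.5 and 2 with a pseudocount of 0.1. Over Zfp42 classes of the positive library, 3 higher became 2 for 0 to 7 against 8 or more, and 1 lower became 2 without endoderm marker cells, 0 for 0 to 7 against 8 or more and 3 at a ratio of 1.5. In the negative library 2 higher became 0 for 0 to 7 against 8 or more, and 0 lower became 1 (Bmp4) in cells of 15000 to 40000 UMIs. Over endoderm classes of the negative library 0 higher became 1 at a ratio of 1.5. Apart from the lower ratio and the wider classes, which change counts by construction, the cause was not tested. The settings that used cells with 8 or more Zfp42 UMIs and, for Zscan4, cells with 0 to 2 Zfp42 UMIs were chosen after seeing the data, as were those without shared barcodes and with cells of 15000 to 40000 UMIs between libraries, and TMM for the classes of GFP, Zfp42 and endoderm markers. Depth limits Smad6, with 238 and 222 UMIs in all, and the smallest crossed classes.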
